A study of Mus musculus with 4 samples.

Results

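Mitosis and G2/M genes were followed as a group after knockdown of Chadl in ATDC5, a line of mouse cells that can take the path to cartilage. The group is a list of 40 genes chosen by name, with earlier results of these data known. Every probe set whose single gene symbol was on the list was taken. This gave 70 probe sets for 38 of the 40 genes, out of 45037 probe sets and 17097 genes in all. Ccnb1 and Nuf2 had no probe set under their own symbol and were not analysed here. Where a gene had several probe sets, the one with the highest mean signal stands for it, and the others are given further on. There were 2 arrays of Chadl knockdown and 2 control arrays. The knockdown cells received a duplex RNA, named an shRNA in the labels, directed at Chadl. The control cells received a universal scrambled duplex. Both groups got 30 nM of a 27-mer duplex with Lipofectamine, changed to differentiation medium after 16 h and were collected at 5 days of differentiation, so that transfection with double-stranded RNA is common to all arrays. The model is 1 cell line and the labels report 1 effective duplex sequence. The arrays of a group are labelled biological replicates, but no label tells of separate cultures. The p-values therefore measure only the spread among these 4 arrays, which may be technical. All values are log2 signals after RMA, the authors' normalization, and the number of arrays limits their precision.

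Cells build the mitotic machinery anew in each cycle. The genes of this machinery are transcribed together, late in S phase and in G2, and are silent in cells that have left the cycle, so in bulk RNA their level follows the share of cycling cells. Transcription is held off in resting cells by the DREAM complex and switched on by B-Myb with the MuvB core and by FoxM1, and these act at the CHR (cell cycle genes homology region), often beside CCAAT boxes bound by NF-Y. Chondrocytes proliferate first and leave the cycle as they mature. In RNA from whole cultures, fewer cycling cells and less RNA per cycling cell cannot be told apart.

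Promoters of 6 members are printed to show these elements, with matches in capitals. Each run is 300 bases from RefSeq on GRCm38.p6, 5′ to 3′ on the gene's strand, from 250 before the start site to 50 after it. Capitals mark CCAAT or its reverse complement and the CHR letters TTTGAA or TTCGAA or their reverse complements. The first 5 genes carry at least 2 CCAAT boxes and a CHR, and Kif2c is shown as the member with the widest gap between the knockdown arrays.
Cdk1, chr10:69352863-69353162, minus strand: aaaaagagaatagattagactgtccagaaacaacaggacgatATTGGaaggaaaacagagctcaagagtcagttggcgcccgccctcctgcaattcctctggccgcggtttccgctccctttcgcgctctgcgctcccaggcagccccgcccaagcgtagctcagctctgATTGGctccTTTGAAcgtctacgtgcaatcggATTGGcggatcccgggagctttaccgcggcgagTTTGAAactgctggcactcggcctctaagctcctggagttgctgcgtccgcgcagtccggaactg
Ccnb2, chr9:70421505-70421804, minus strand: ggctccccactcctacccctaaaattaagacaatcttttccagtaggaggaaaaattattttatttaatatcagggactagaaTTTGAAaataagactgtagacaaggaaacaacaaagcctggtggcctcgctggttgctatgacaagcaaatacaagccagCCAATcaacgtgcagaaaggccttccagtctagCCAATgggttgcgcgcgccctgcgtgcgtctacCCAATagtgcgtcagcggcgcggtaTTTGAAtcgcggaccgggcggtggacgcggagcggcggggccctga
Aurka, chr2:172370521-172370820, minus strand: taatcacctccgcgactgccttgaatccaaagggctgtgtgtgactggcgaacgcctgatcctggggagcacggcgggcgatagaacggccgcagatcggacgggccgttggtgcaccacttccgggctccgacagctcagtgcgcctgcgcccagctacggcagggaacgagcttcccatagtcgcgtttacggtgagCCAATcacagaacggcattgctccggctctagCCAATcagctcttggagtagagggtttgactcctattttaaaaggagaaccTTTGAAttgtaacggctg
Cdc20, chr4:118437294-118437593, minus strand: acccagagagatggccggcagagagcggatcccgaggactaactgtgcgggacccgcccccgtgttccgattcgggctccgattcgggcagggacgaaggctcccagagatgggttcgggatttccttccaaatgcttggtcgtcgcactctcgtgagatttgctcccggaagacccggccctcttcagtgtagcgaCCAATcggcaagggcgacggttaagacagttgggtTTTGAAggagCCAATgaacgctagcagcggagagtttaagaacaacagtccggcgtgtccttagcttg
Cenpa, chr5:30666636-30666935, plus strand: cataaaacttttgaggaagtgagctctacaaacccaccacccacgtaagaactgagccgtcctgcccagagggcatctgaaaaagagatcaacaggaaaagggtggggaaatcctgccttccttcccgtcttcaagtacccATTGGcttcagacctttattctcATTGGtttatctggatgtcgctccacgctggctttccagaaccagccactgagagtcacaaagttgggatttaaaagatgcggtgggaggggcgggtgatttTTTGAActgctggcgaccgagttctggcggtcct
Kif2c, chr4:117178723-117179022, minus strand: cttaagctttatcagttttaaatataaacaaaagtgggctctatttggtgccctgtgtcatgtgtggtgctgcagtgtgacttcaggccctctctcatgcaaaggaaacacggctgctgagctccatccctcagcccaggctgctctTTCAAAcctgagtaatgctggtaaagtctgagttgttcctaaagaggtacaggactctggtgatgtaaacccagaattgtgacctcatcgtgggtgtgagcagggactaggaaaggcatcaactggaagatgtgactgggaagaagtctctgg
In Cdk1, Ccnb2, Aurka and Cenpa a CHR followed the last CCAAT toward or past the start, and in Cdc20 it lay between the pair.

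Of the 40 genes, 33 matched the promoter table. CCAAT was found in 26 of the 33 (78.8%), against 41.1% of 27025 genes in the table. A CHR was found in 25 (75.8%), against 21.7% of all genes. Both were found in 22 (66.7%), against 8.61% of all genes, and at least 2 CCAAT with a CHR in 16 (48.5%), against 2.68%. Both strands were searched, and 1 CCAAT match, in Cdca8, overlapped a CHR. Birc5, Mad2l1, Nuf2 and Nusap1 had neither set of letters in the window. A match is a description of the letters and no evidence of binding. The 22 measured members with both had medians of -0.17 in knockdown 1 and 0.10 in knockdown 2, relative to the control mean, and the other 9 had medians of -0.14 in knockdown 1 and 0.09 in knockdown 2. The median gap between the knockdown arrays was -0.26 in both sets. Divided by the CHR alone, it was -0.27 in 25 members with it and -0.15 in 6 without. Divided by CCAAT alone, it was -0.25 in 25 members with it and -0.32 in 6 without. These medians are given without a test.

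**Figure D1:**
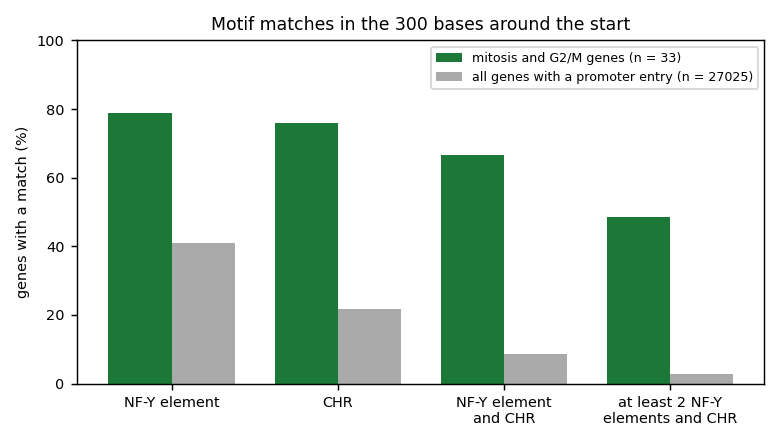
Share of genes (%, y axis) with a match within 300 bases around the start, for the 33 mitosis and G2/M genes in the promoter table and for all 27025 genes. The NF-Y element is CCAAT and the CHR is TTTGAA or TTCGAA, on either strand. Both were found in 66.7% of the mitosis and G2/M genes and in 8.61% of all genes.

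The arrays as a whole were alike in scale, with median signals between 4.24 and 4.25. Knockdown 1 stood further from the controls. The SD over genes of the log2 difference from control 1 was 0.20 for knockdown 1, 0.13 for knockdown 2 and 0.10 for control 2, and it was 0.20 between the knockdowns. The targeted gene Chadl read 4.29 and 4.64 in knockdown 1 and knockdown 2, against 4.91 and 4.84 in the controls (log2 difference -0.41, SE 0.12, limma adjusted p = 0.608). Of the chondrocyte markers, 5 of 11 lay below the median signal of all genes, with Cnmd and Comp dimmest, while Col11a1 and Col2a1 lay above the 90th percentile. The summed linear signal of the 11 chondrocyte markers was 1571 and 1969 in the knockdowns, against 1771 and 1826 in the controls. That of 5 osteoblast markers was 1211 and 1769 in the knockdowns, against 2491 and 2527 in the controls. That of 5 adipocyte markers was 233 and 179 in the knockdowns, against 194 and 178 in the controls. The 6 macrophage and 5 endothelial markers all lay below the median signal. The macrophage sum was 85.3 and 90.2 in the knockdowns, against 89.9 and 84.7 in the controls. The endothelial sum was 73.3 and 71.5 in the knockdowns, against 66.8 and 69.3 in the controls. By the naming rule the 2 brightest markers of each type are given as the difference, knockdown minus control, which was 0.15 for Col11a1, -0.35 for Col2a1, -0.14 for Col1a1, -2.13 for Ibsp, 0.18 for Lpl, 0.10 for Pparg, -0.09 for Csf1r, -0.05 for Adgre1, 0.11 for Kdr and -0.11 for Cdh5, with 0 past the threshold in limma. At an unadjusted p of 0.05 the marker lists held 3 higher genes (Col11a1, Fabp4 and Vwf, the last 2 named after their values were seen) and 6 lower ones. Of all genes 4.4% were higher and 2.56% lower. Fabp4 was dim, at the 5.21th percentile. The lower ones were 2 chondrocyte markers and 4 of the 5 measured osteoblast markers, out of 8 listed. All 5 osteoblast markers were below both controls in both knockdown arrays, against 17.1% of all genes. The part of any of these in the results below was not tested.

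The mitosis and G2/M genes were lower in knockdown 1 than in knockdown 2 without exception. All 38 measured genes had the lower signal in knockdown 1, against 53.2% of all genes. The median log2 difference, knockdown 1 minus knockdown 2, was -0.25 over the 38 genes, a 1.19-fold gap, against -0.01 over all genes. The median of control 1 minus control 2 over the same 38 genes was 0.03. The gap between the knockdown arrays was wider than that between the controls for 36 of 38 genes, against 63.4% of all genes. It was at least 1.2-fold, with knockdown 1 lower, for 17 of 38, against 5.89% of all genes and 7.66% of the genes at or above the median signal. With 1 array on each side this difference has no test. The 2 arrays are replicates of 1 group, so the gap describes these arrays.

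The controls lay between the knockdown arrays for most of the genes. Relative to the control mean, the median over the 38 genes was -0.16 in knockdown 1 (1.12-fold lower) and 0.10 in knockdown 2 (1.07-fold higher), against -0.0031 and 0.01 over all genes. Knockdown 1 was below both controls for 31 genes (39.4% of all genes) and knockdown 2 above both for 32 (41.7% of all genes). Both held at once for 26 of the 38, against 13.2% of all genes and 15.8% of the genes at or above the median signal. These counts ask for no margin, and some members passed narrowly. In knockdown 2 Cdca3 read 8.802, against 8.799 in the higher control, and Cks2 read 9.963, against 9.958. The reverse order, knockdown 1 above and knockdown 2 below both controls, was seen for 0 of 38, against 9.52% of all genes. The 2 knockdown arrays were both below the controls for 1 member, Kif23 (17.1% of all genes), and both above for 2, Foxm1 and Ndc80 (21.2% of all genes). Kif23 was dim, at the 18.4th percentile of gene signal.

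**Figure D2:**
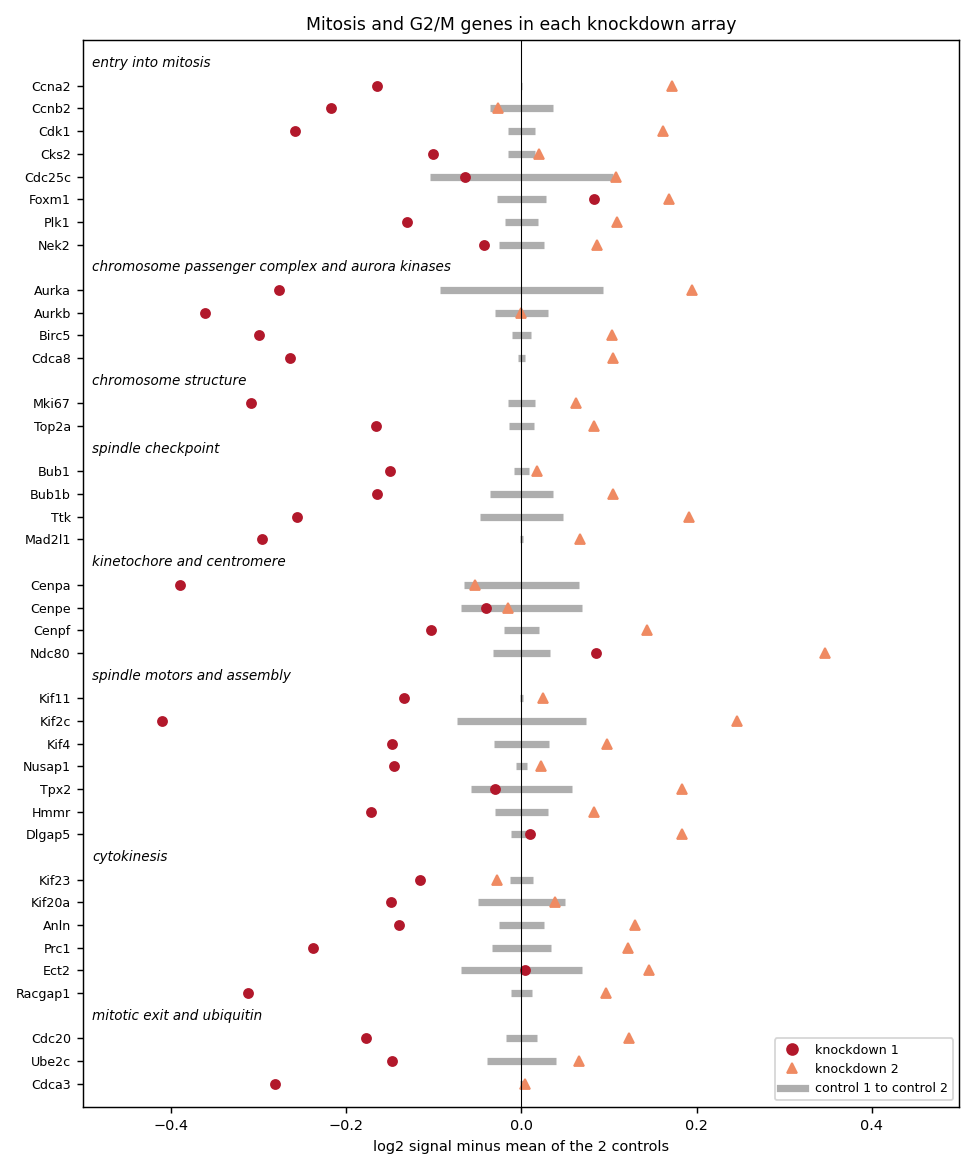
Log2 signal of each of the 38 genes in knockdown 1 (circles) and knockdown 2 (triangles) minus the mean of the 2 controls, by role, and the span from control 1 to control 2 centred on 0 (grey bars). The circle is left of the triangle in all 38 rows, and for 26 genes the points lie on opposite sides of the bar.

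No member passed the test of knockdown against control. In limma, with Benjamini-Hochberg adjustment over all 45037 probe sets, 0 of the 38 genes and 0 of the 70 probe sets passed an adjusted p of 0.05, against 0.00222% of all probe sets. At an unadjusted p of 0.05 there were 0 lower and 0 higher among the 38 genes, against 2.56% of all genes lower and 4.4% higher. The median difference, knockdown minus control, was -0.04, against 0.0067 over all genes, and the knockdown mean was below the control mean for 29 of the 38, against 47.3% of all genes. The group differences ran from -0.22 (Cenpa) to 0.22 (Ndc80). The lowest adjusted p was 0.71, for Ndc80. These group means average 2 arrays that lie on opposite sides of the controls, and a p that misses the threshold does not show that the groups were alike.

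Each knockdown array was also set against both controls alone, with the lone array taken to vary like the controls. For knockdown 1, limma called 19 of the 38 genes lower and 0 higher at an adjusted p of 0.05, against 6.19% of all genes called lower and 9.23% called higher. For knockdown 2 it called 2 higher, Cdk1 and Ndc80, and 0 lower, against 2.44% of all genes called higher and 1.77% called lower. Cdk1 was thus called in opposite directions in replicates of 1 group, with differences of -0.26 in knockdown 1 and 0.16 in knockdown 2. With 1 knockdown array per fit, the spread between the knockdown arrays does not enter. That spread was the wider one, with an SD over genes of 0.20 between the knockdowns, against 0.10 between the controls. These calls therefore describe how single arrays deviate and cannot test an effect of the knockdown. Both fits use the same controls.

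Among the genes that start mitosis, the engine itself parted between the arrays. Cdk1, the kinase that drives entry into mitosis, read 9.15 in knockdown 1 and 9.57 in knockdown 2, against 9.39 and 9.42 in the controls. Ccna2, the A-type cyclin of S phase and G2, read 7.65 and 7.98 in the knockdowns, against 7.81 and 7.81 in the controls. In both genes the controls lay between the knockdown arrays, which differed by 0.42 for Cdk1 and 0.34 for Ccna2, while the controls differed by 0.03 and less. Ccnb2, the B-type cyclin partner of Cdk1, read 7.80 and 7.99 in the knockdowns, against 8.05 and 7.98 in the controls. Here knockdown 2 lay between the controls and knockdown 1 below them. Cks2, the small subunit that docks Cdk1 on its substrates, spanned 9.84 and 9.96 in the knockdowns, against 9.96 and 9.93 in the controls, a gap of 0.12 between the knockdowns. Plk1, the polo-like kinase of spindle poles and kinetochores, read 6.03 and 6.27 in the knockdowns, against 6.18 and 6.14 in the controls. Nek2, a kinase that separates the centrosomes, read 6.56 and 6.69 in the knockdowns, against 6.58 and 6.63 in the controls. Plk1 and Nek2 had the controls between the knockdown arrays. Cdc25c, the phosphatase that activates Cdk1, read 4.61 and 4.78 in the knockdowns, against 4.57 and 4.77 in the controls, so that the knockdowns differed less than the controls. Foxm1, the transcription factor that activates G2/M genes, was apart from the rest, at 5.21 and 5.30 in the knockdowns, against 5.10 and 5.16 in the controls. Its difference was 0.13 (SE 0.09, limma adjusted p = 0.781). Of these 8 genes, 5 had knockdown 1 below and knockdown 2 above both controls.

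The Aurora kinases and the chromosomal passenger complex had a gap of at least 1.2-fold between the knockdown arrays for each of the 4 genes. Aurka, the Aurora kinase of centrosomes and spindle poles, read 6.85 and 7.32 in the knockdowns, against 7.22 and 7.03 in the controls. Aurkb, the kinase of the passenger complex, which corrects faulty attachments of chromosomes, read 5.97 and 6.34 in the knockdowns, against 6.37 and 6.31 in the controls. For Aurka the controls, themselves 0.19 apart, lay within the knockdown pair, and for Aurkb knockdown 2 lay within the control pair. Birc5 (survivin) and Cdca8 (borealin), which target the complex to centromeres, were alike. Birc5 read 8.18 and 8.58 in the knockdowns, against 8.49 and 8.46 in the controls, and Cdca8 read 7.30 and 7.67 in the knockdowns, against 7.57 and 7.56 in the controls. In knockdown 1 all 4 genes were below the control mean, with differences from -0.36 to -0.26.

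Chromosome structure genes showed the same order of arrays. Mki67, whose product Ki-67 coats mitotic chromosomes and marks cycling cells, read 8.10 and 8.48 in the knockdowns, against 8.43 and 8.40 in the controls. Top2a, the topoisomerase that untangles sister chromatids, read 9.16 and 9.41 in the knockdowns, against 9.31 and 9.34 in the controls. Knockdown 1 lay 1.24-fold below the control mean for Mki67 and 1.12-fold below it for Top2a, and knockdown 2 lay above both controls for each.

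**Figure D3:**
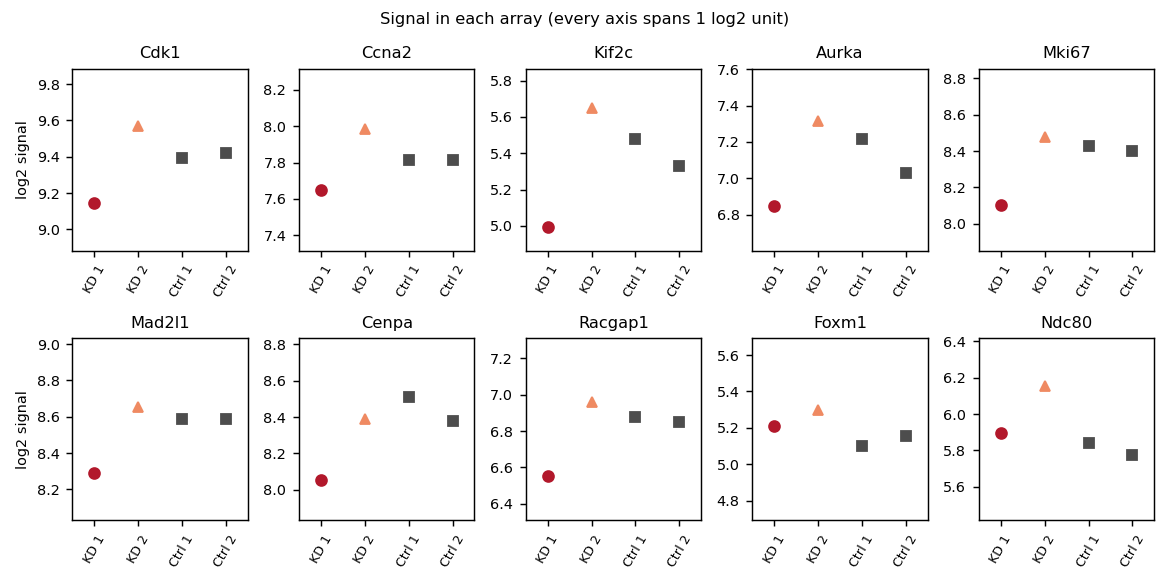
Log2 signal (y axis, each spanning 1 log2 unit) of 10 members in knockdown 1 and knockdown 2 and in control 1 and control 2. Knockdown 1 is the lowest array for 8 of the 10, and Foxm1 and Ndc80 have both knockdown arrays above both controls.

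Spindle checkpoint genes, which delay anaphase until every kinetochore is attached, all had the controls between the knockdown arrays. Ttk, the kinase that starts the checkpoint, read 6.47 and 6.92 in the knockdowns, against 6.78 and 6.68 in the controls. Mad2l1, which holds Cdc20 inactive, read 8.29 and 8.66 in the knockdowns, against 8.59 and 8.59 in the controls. The controls differed by 0.0034 for Mad2l1, while the knockdowns differed by 0.36. Bub1, a kinase bound to kinetochores, read 8.004 and 8.172 in the knockdowns, against 8.162 and 8.145 in the controls. Bub1b (BubR1), a part of the checkpoint complex, read 6.94 and 7.21 in the knockdowns, against 7.07 and 7.14 in the controls. For Bub1 knockdown 2 exceeded the higher control by less than the gap between the controls.

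Kinetochore and centromere genes were mixed, and 1 of the 4 had the controls between the knockdown arrays. Cenpa, the histone H3 variant that marks centromeres, read 8.05 and 8.39 in the knockdowns, against 8.51 and 8.38 in the controls. Knockdown 1 was 1.31-fold below the control mean, and knockdown 2 lay between the controls. Cenpf, a large kinetochore protein that peaks in G2, read 7.002 and 7.249 in the knockdowns, against 7.126 and 7.085 in the controls. Cenpe, a kinesin that moves chromosomes to the spindle equator, read 6.56 and 6.58 in the knockdowns, against 6.67 and 6.53 in the controls, and the groups overlapped. Ndc80, the microtubule-binding subunit at the outer kinetochore, read 5.89 and 6.16 in the knockdowns, against 5.84 and 5.78 in the controls. Both knockdown arrays were above both controls, 1.06-fold and 1.27-fold above the control mean (difference 0.22, SE 0.11, limma adjusted p = 0.71).

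Spindle motors and assembly factors held the widest gap of the 38 genes. Kif2c (MCAK), a kinesin that takes microtubules apart, read 4.99 and 5.65 in the knockdowns, against 5.48 and 5.33 in the controls. The gap between the knockdowns was 1.58-fold, the one gap above 1.5-fold, and the controls were 0.15 apart. Kif11 (Eg5), the motor that pushes the spindle poles apart, read 6.19 and 6.35 in the knockdowns, against 6.32 and 6.32 in the controls. Kif4, a chromokinesin, read 6.41 and 6.65 in the knockdowns, against 6.58 and 6.52 in the controls. The controls lay between the knockdown arrays for these 3 motors. Tpx2, which activates Aurora A on the spindle, read 6.82 and 7.04 in the knockdowns, against 6.80 and 6.91 in the controls. Dlgap5 (HURP), which stabilises microtubules near chromosomes, read 6.40 and 6.58 in the knockdowns, against 6.38 and 6.41 in the controls. For these 2 genes knockdown 1 lay within the control pair and knockdown 2 above it. Hmmr, a spindle and hyaluronan-binding protein, read 7.56 and 7.81 in the knockdowns, against 7.70 and 7.76 in the controls. Nusap1, which bundles microtubules, read 7.63 and 7.80 in the knockdowns, against 7.78 and 7.77 in the controls. Both again had the controls in between.

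Of the 6 cytokinesis genes, 3 had the controls between the knockdown arrays. Racgap1, which works with Kif23 in the centralspindlin complex, read 6.55 and 6.96 in the knockdowns, against 6.88 and 6.85 in the controls. Prc1, which crosslinks the central spindle, read 8.06 and 8.42 in the knockdowns, against 8.33 and 8.26 in the controls. Anln (anillin), a scaffold of the contractile ring, read 8.77 and 9.04 in the knockdowns, against 8.94 and 8.88 in the controls. Those 3 were the ones split in this way. Kif20a, a central spindle kinesin, read 6.53 and 6.72 in the knockdowns, against 6.73 and 6.63 in the controls. Ect2, the exchange factor that switches on RhoA at the cell equator, read 7.42 and 7.56 in the knockdowns, against 7.48 and 7.34 in the controls. Kif20a had knockdown 2 and Ect2 had knockdown 1 within the control pair. Kif23, the centralspindlin kinesin, read 3.55 and 3.64 in the knockdowns, against 3.68 and 3.66 in the controls, with both knockdown arrays lowest.

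The genes grouped under mitotic exit and ubiquitin had knockdown 1 below and knockdown 2 above both controls in 3 of 3 cases. Cdc20, the activator of the anaphase-promoting complex, read 7.89 and 8.19 in the knockdowns, against 8.09 and 8.05 in the controls. Ube2c, the ubiquitin-conjugating enzyme of that complex, read 8.70 and 8.91 in the knockdowns, against 8.88 and 8.81 in the controls. Cdca3, a protein that promotes the destruction of Wee1, read 8.52 and 8.80 in the knockdowns, against 8.80 and 8.80 in the controls, so that knockdown 2 was 0.0044 above the control mean.

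Further probe sets of the same genes also had knockdown 1 below knockdown 2 where they were bright. Of the 70 probe sets, 58 lay at or above the median signal of all probe sets, and all 58 had the lower signal in knockdown 1 (median gap -0.26). Of these, 21 were not the brightest of their gene, and they had a median gap of -0.28. Knockdown 1 was below and knockdown 2 above both controls for 13 of the 21, against 5223 of all 45037 probe sets. Both knockdown arrays were below both controls for 3 of the 21 (Cenpe, Cenpf and Kif11), against 8973 of all 45037. That of Kif11 read 4.80 and 4.99 in the knockdowns, against 5.03 and 5.19 in the controls. The 12 dimmer probe sets divided evenly, with 6 lower in knockdown 1 and a median gap of -0.01. Among the 21 brighter ones, wide gaps were those of Hmmr, Ttk and Prc1. A probe set of Hmmr read 5.38 and 5.92 in the knockdowns, against 5.89 and 5.89 in the controls. One of Prc1 read 6.74 and 7.25 in the knockdowns, against 7.13 and 7.05 in the controls. One of Ttk read 4.21 and 4.74 in the knockdowns, against 4.33 and 4.27 in the controls. Probe sets of 1 gene can read different transcript ends, and some did not match their partner. The second Cenpe probe set read 5.01 and 5.10 in the knockdowns, against 5.45 and 5.47 in the controls (difference -0.41, SE 0.09, limma adjusted p = 0.444). A second Cenpf probe set read 4.05 and 4.20 in the knockdowns, against 4.33 and 4.40 in the controls. These and a very dim probe set of Foxm1, at the 1.95th percentile, were the 3 of 70 with an unadjusted p under 0.05, and all 3 were lower in both knockdown arrays. Of all probe sets 3.83% were lower and 3.42% higher at that p, so the count is near the background. The brightest probe sets of Cenpf and Foxm1 had group means of the opposite sign. Foxm1 had 2 other probe sets at or above the median signal, of which the brighter read 4.89 and 5.19 in the knockdowns, against 5.11 and 5.25 in the controls. The dimmer of these read 4.60 and 4.90 in the knockdowns, against 4.92 and 4.70 in the controls. Knockdown 1 was the lowest array in both, and Foxm1 lay above both controls in both knockdown arrays on 1 of its 4 probe sets.

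**Figure D4:**
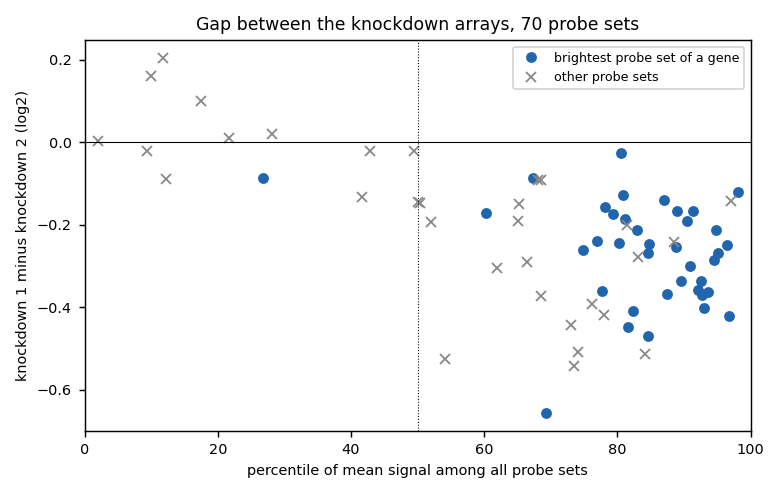
Difference in log2 signal, knockdown 1 minus knockdown 2 (y axis), of the 70 probe sets against the percentile of their mean signal among all probe sets (x axis), for the brightest probe set of each gene (circles) and the others (crosses). To the right of the dotted line at the median all 58 points lie below 0, and to its left 6 of 12 do.

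Other genes of the cell cycle were read in lists apart from the 40. These lists too were chosen with earlier results of these data known, and they are read on the same 4 arrays, so they are no separate check. Of 56 further mitotic genes, 52 were lower in knockdown 1 than in knockdown 2, against 53.2% of all genes. Knockdown 1 was below and knockdown 2 above both controls for 23, against 13.2% of all genes. Their medians were -0.12 in knockdown 1 and 0.05 in knockdown 2. At an unadjusted p of 0.05 there were 0 higher and 0 lower in limma, against 4.4% and 2.56% of all genes. Pttg1 (securin), which guards sister chromatid cohesion, read 10.26 and 10.29 in the knockdowns, against 10.19 and 10.19 in the controls. Cks1b, the paralogue of Cks2, read 9.69 and 10.0 in the knockdowns, against 9.86 and 9.88 in the controls. Cks1b followed the order of the list, while Pttg1 was above both controls in both arrays.

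Replication and S-phase genes had the same signs with smaller medians. Of 40 genes, 34 were lower in knockdown 1 than in knockdown 2 (53.2% of all genes). Knockdown 1 was below and knockdown 2 above both controls for 13 (13.2% of all genes). The medians were -0.08 in knockdown 1 and 0.03 in knockdown 2. Pcna, the sliding clamp of the replication fork, read 11.26 and 11.31 in the knockdowns, against 11.32 and 11.32 in the controls. Slbp, which binds histone mRNA, read 10.01 and 10.08 in the knockdowns, against 10.16 and 10.10 in the controls. At an unadjusted p of 0.05, 2 of the 40 were lower and 0 higher, against 2.56% and 4.4% of all genes. They were the E-type cyclin Ccne2 (7.94 and 8.14 in the knockdowns, against 8.39 and 8.43 in the controls) and the uracil glycosylase Ung (8.001 and 8.007 in the knockdowns, compared with 8.169 and 8.193 in control cells). Neither passed over all probe sets (limma adjusted p = 0.464 and 0.648). Both were named after their values were seen.

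The remaining machinery was divided, and the counts below stand beside 53.2% of all genes lower in knockdown 1 than in knockdown 2. For 16 condensin and cohesin genes, including the cohesin subunits Smc3 (difference 0.07) and Rad21 (0.03), the medians were -0.07 in knockdown 1 and 0.02 in knockdown 2, and 11 were lower in knockdown 1 than in knockdown 2. That list pools unlike parts. Of 8 condensin genes, whose products compact mitotic chromosomes, 7 were lower in knockdown 1 than in knockdown 2, with medians of -0.14 in knockdown 1 and 0.04 in knockdown 2. Of 8 genes of cohesin and its regulators 4 were, with medians of 0.02 in knockdown 1 and 0.0040 in knockdown 2. The condensin subunits Ncaph, Ncapd2 and Smc2 were the 3 of 16 with knockdown 1 below and knockdown 2 above both controls (13.2% of all genes). This division into condensin and cohesin was made after their values were seen. Ncaph read 5.70 and 6.29 in the knockdowns, against 6.08 and 5.94 in the controls. For 14 subunits and partners of the anaphase-promoting complex, including Anapc5 (-0.03) and Cdc16 (-0.0041), they were 0.03 and 0.06, and 8 were lower in knockdown 1. For 21 E2F, MuvB and MYB regulators, including the E2F partner Tfdp1 (-0.04) and the histone-binding MuvB subunit Rbbp4 (0.02), they were -0.0048 and 0.02, and 11 were lower in knockdown 1. Of all genes 2.56% were lower and 4.4% higher at an unadjusted p of 0.05, against 0 genes in the first 2 lists and 1 in the third. It was Mybl2, which encodes B-Myb, with 4.70 and 4.58 in the knockdowns, against 4.45 and 4.42 in the controls (limma adjusted p = 0.684). It was named after its values were seen.

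The lists that hold the brakes of the cycle had medians near 0. For 17 p53 targets the medians were 0.01 in knockdown 1 and -0.02 in knockdown 2, and for 12 CDK inhibitors, D cyclins and their kinases 0.03 and -0.01. Ccng1 (difference -0.04), Sesn1 (-0.12), Cdk4 (0.05) and Cdkn2b (0.14) were the brightest of these lists. In limma 0 genes of either list passed. At an unadjusted p of 0.05, 1 CDK inhibitor was lower, and of the p53 targets 3 were higher and 1 lower, all 5 named after their values were seen. Of all genes 2.56% were lower and 4.4% higher at that p. Cdkn1a (p21), which is an inhibitor of cyclin-dependent kinases as well as a p53 target, read 6.21 and 6.89 in the knockdowns, against 7.39 and 7.39 in the controls (difference -0.84, SE 0.19, limma adjusted p = 0.488). Cdkn1c (p57) read 4.95 and 5.68 in the knockdowns, against 5.82 and 5.96 in the controls. The higher ones were Plk2 (difference 0.59), Perp (0.74) and Eda2r (0.20). These lists held shifts of both signs in knockdown 1, from -1.18 to 1.22 among the p53 targets and from -0.94 to 0.54 among the CDK inhibitors and D cyclins, relative to the control mean. The inhibitor Cdkn2b (p15) read 9.69 and 9.30 in the knockdowns, against 9.35 and 9.36 in the controls. It was highest in knockdown 1, where Cdkn1a and Cdkn1c were lowest.

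**Figure D5:**
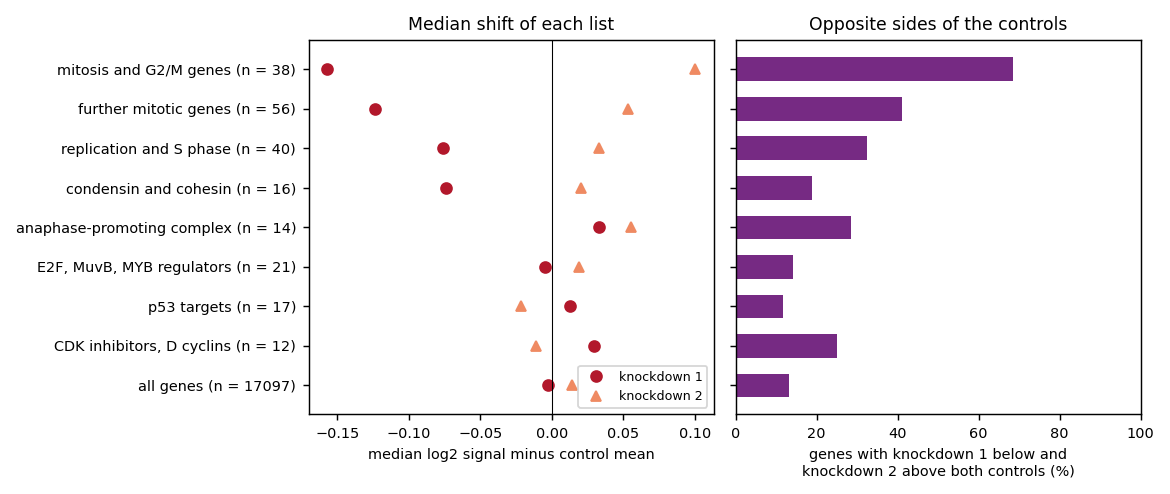
Left, the median log2 signal minus the control mean in knockdown 1 (circles) and knockdown 2 (triangles) for the mitosis and G2/M genes, 7 further lists and all genes. Right, the share of each list (%) with knockdown 1 below and knockdown 2 above both controls, which is 26 of 38 for the mitosis and G2/M genes, 23 of 56 for further mitotic genes and 13.2% of all genes.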

How the data were processed

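Total RNA was read on 4 Affymetrix mouse arrays, 2 of Chadl knockdown and 2 of control, grouped by their titles. The authors deposited a log2 signal for every probe set. The submitters' processing notes name RMA as the normalization. RMA removes differences in total RNA and compresses the change of dim genes. Its version is not given in the sources used here, and base 2 was inferred because all values lie between 2.17 and 12.72. Every column of the table was used.

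From these values, 104 array controls were left out and a linear model with moderated variances that follow the mean signal (limma 3.58.1, R 4.3.3) was fitted on the other 45037 probe sets, with 2 residual and 5.32 prior degrees of freedom. Adjusted p is by Benjamini-Hochberg over all probe sets, tests are two-sided, the threshold is 0.05, and there was no filter on dim probe sets. Genes were named from the platform annotation, which can be old. Of the tested probe sets 28898 carried 1 symbol, 551 several and 15588 none, and none of the 40 genes was found among the several. Gene IDs of the 38 measured members matched RefSeq for 38, with 0 symbols changed. Each of 17097 genes was represented by its brightest probe set. The fit was tested on simulated data.

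The members and lists were chosen with earlier results of these data known. The rule for named genes took all members, Chadl and, from each of 12 further lists (7 of the cell cycle, 5 of cell type markers), members past the threshold or, where none passed, the 2 brightest. The marker genes it took besides Col11a1 and Col2a1 were Col1a1, Ibsp, Lpl, Pparg, Csf1r, Adgre1, Kdr and Cdh5. Alternatives were quantile normalization, centring on the median, leaving out probe sets below the 40th percentile, 1 probe set per gene, the mean of probe sets, moderation without the trend or with robust priors, the replicate number as a block, an adjusted p of 0.1 and leaving out each array.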

Additional observations from a re-analysis of the deposited data

How the results depend on the processing

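In all settings other than leaving out an array, 0 members passed in limma, an adjusted p of 0.1 and the replicate block included. Without control 1 or control 2 it was also 0, without knockdown 1 it was 2 and without knockdown 2 it was 19. The median difference over members was -0.04 and ran from -0.16 to 0.10 when 1 array was left out, turning upward without knockdown 1. The number of members with both knockdown arrays below both controls, 1, became 2 with quantile normalization, 0 without dim probe sets and 5 with the mean of probe sets. The number with both above, 2, became 1 with the mean of probe sets and 3 with each array centred on its median. With both knockdown arrays kept, leaving out control 2 gave 6 below and 5 above, and leaving out control 1 gave 1 below and 4 above. With a knockdown array left out, the count rests on the other alone. Knockdown 1 alone was below both controls for 31 members and knockdown 2 alone above both for 32. The number with knockdown 1 below and knockdown 2 above both controls, 26, was 24 to 33 in the settings that keep both knockdown arrays. This range includes the settings without control 1 or control 2, where the arrays were compared with 1 control only, which is easier to meet. The order of the knockdown arrays was checked in alternatives chosen after seeing the data. Knockdown 1 was lower for 38 genes with quantile normalization, with centring and with the mean of probe sets, and for 37 of 37 without dim probe sets. The replicate numbers pair no samples by the labels. The correlation over genes of same-numbered arrays' deviations was -0.0041, and the block moved no call. Signs of single genes turned with quantile normalization for Anln (0.0006) and Ncapd2 (-0.0021), and with the mean of probe sets for Ccna2 (-0.0075), Foxm1 (-0.073), Nek2 (-0.0046), Ttk (0.071), Cenpf (-0.13), Pttg1 (-0.014), Ccng1 (0.018), Cdh5 (0.0009). Over the fits that each left out 1 array, the difference turned sign for 30 members and 15 other named genes. Without 1 knockdown array the difference is that of the other array alone. A gene with the knockdown arrays on opposite sides of the control mean therefore turns in 1 of them by construction. The cause was not tested beyond the values of each array. The ranges for members were Cdc25c -0.083 to 0.13, Plk1 -0.13 to 0.11, Nek2 -0.043 to 0.086, Aurka -0.28 to 0.19, Ttk -0.26 to 0.19, Cenpe -0.097 to 0.041, Kif4 -0.15 to 0.097, Anln -0.14 to 0.13, Bub1b -0.16 to 0.10, Cenpf -0.10 to 0.14, Cdk1 -0.26 to 0.16, Cks2 -0.10 to 0.020, Birc5 -0.30 to 0.10, Cdca8 -0.26 to 0.10, Mki67 -0.31 to 0.062, Top2a -0.17 to 0.083, Bub1 -0.15 to 0.018, Mad2l1 -0.30 to 0.067, Kif11 -0.13 to 0.025, Kif2c -0.41 to 0.25, Nusap1 -0.15 to 0.022, Hmmr -0.17 to 0.083, Kif20a -0.15 to 0.038, Prc1 -0.24 to 0.12, Racgap1 -0.31 to 0.096, Cdc20 -0.18 to 0.12, Ube2c -0.15 to 0.065, Cdca3 -0.28 to 0.0044, Ccna2 -0.16 to 0.17, Tpx2 -0.030 to 0.18. For the others they were Cdc16 -0.080 to 0.071, Rbbp4 -0.046 to 0.078, Csf1r -0.23 to 0.043, Ncaph -0.31 to 0.28, Ncapd2 -0.16 to 0.17, Anapc5 -0.074 to 0.006, Adgre1 -0.12 to 0.028, Cks1b -0.18 to 0.13, Sesn1 -0.27 to 0.034, Cdkn2b -0.053 to 0.33, Col2a1 -0.82 to 0.12, Lpl -0.13 to 0.49, Kdr -0.027 to 0.25, Smc2 -0.12 to 0.071, Ccng1 -0.086 to 0.0038. The number of arrays and dim signal limit what could be seen.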
